A study of Mus musculus with 2 samples.

Results

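A set of 10 genes that mark layers of the urothelium or simple epithelium was followed in embryonic mouse kidney. The genes were chosen by name, and each was found by its Ensembl identifier in both gene tables, which makes 10 of 43346 mouse genes. The urothelial plaque genes Upk1a, Upk1b, Upk2 and Upk3a were compared with the simple epithelial keratins Krt7, Krt8, Krt18 and Krt19 and with the basal genes Krt5 and Trp63. Total RNA over 200 nt had been sequenced from kidneys of B6NCrl embryos at 16.5 days of development, with 10 ng of RNA per library. The 2 samples are 1 group with no treatment or mutation, and the labels call them biological replicates 1 and 2. Each is a pool of male and female embryos (41 embryos in replicate 2), so differences between single embryos cannot be seen. With 1 group of 2 libraries no test between conditions exists, and an exact test over 2 paired libraries cannot give a two-sided p under 0.5.

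The urothelium is the lining of the renal pelvis, ureter and bladder. Its superficial umbrella cells cover their surface with rigid plaques made of uroplakins, and basal cells with p63 and the keratin Krt5 lie on the basement membrane. Uroplakins leave the endoplasmic reticulum as pairs, Upk1a with Upk2 and Upk1b with Upk3a. Keratin filaments are built from a type II keratin (Krt5, Krt7, Krt8) and a type I keratin (Krt18, Krt19), and the simple keratins are shared by most single-layered epithelia, among them the collecting duct. In whole kidney, therefore, keratin RNA can come from many more cells than uroplakin RNA. In such bulk RNA, fewer cells of a type and less RNA per cell cannot be told apart.

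Expected counts summed to 34261328 on mouse genes in replicate 1 and 37900132 in replicate 2. Kidney markers were present: all 8 nephron genes of the marker list and all 10 genes of the ureteric bud and collecting duct reached 1 TPM in both libraries. (TPM is a level corrected for transcript length and library size.) Replicate 2 also held RNA of the lung surfactant gene Sftpc, at 225.23 TPM (3959 counts) against 0.49 TPM (8 counts) in replicate 1, and of the lung and thyroid factor Nkx2-1, with 68 counts against 0, which allows up to 3. Of the gut genes, Cdx2 had 0 counts in both, Fabp2 2 and 6, Muc2 9 and 12 and Cdh17 10 and 6. Vil1 stood at 14.73 TPM in both libraries (1007 and 1092 counts). Because the libraries differ in Sftpc, the values of both are given for each result.

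The 10 genes lie on 5 chromosomes in the GRCm38 (mm10) assembly. Upk1a [ENSMUSG00000006313] is on chromosome 7 (30603092 to 30612847, minus strand), Upk2 [ENSMUSG00000041523] on chromosome 9 (44452715 to 44454976, minus strand), Upk1b [ENSMUSG00000049436] on chromosome 16 (38773184 to 38800328, minus strand) and Upk3a [ENSMUSG00000022435] on chromosome 15 (85017141 to 85022547, plus strand). Trp63 [ENSMUSG00000022510] spans 25683763 to 25892102 on the plus strand of chromosome 16, and Krt19 [ENSMUSG00000020911] lies in the type I keratin cluster of chromosome 11 (100140810 to 100148665, minus strand). Krt7 [ENSMUSG00000023039] (101411043 to 101430313, plus strand), Krt5 [ENSMUSG00000061527] (101707070 to 101712898, minus strand), Krt8 [ENSMUSG00000049382] (101996698 to 102004482, minus strand) and Krt18 [ENSMUSG00000023043] (102028180 to 102032027, plus strand) share the type II cluster of chromosome 15. Krt18 is a type I keratin, and it sits 23.7 kb beyond Krt8, its filament partner. All 10 are annotated as protein-coding.

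Sequence before the start site is shown for the highest plaque gene, for the Krt8 and Krt18 pair and for Krt5, the lowest of the 10 genes. Each stretch is the 100 bases nearest to the start that lie in no annotated exon of the gene (GRCm38.p6, RefSeq start sites, sequences from RefSeq), read 5′ to 3′ on the gene's strand, with matches to the motifs named below in capitals. The stretches are chr15:85017041-85017140 (plus), chr15:102004483-102004582 (minus), chr15:102028080-102028179 (plus) and chr15:101712906-101713005 (minus). For Krt8 and Krt18 exon bases were passed over, so the nearest base shown lies 141 and 37 bases from the RefSeq start. Matches named below that are not in capitals, such as the TATA box of Krt8, lie elsewhere in the searched windows.
Upk3a: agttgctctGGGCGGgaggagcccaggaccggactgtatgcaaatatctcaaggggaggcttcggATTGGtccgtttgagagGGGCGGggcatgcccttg
Krt8: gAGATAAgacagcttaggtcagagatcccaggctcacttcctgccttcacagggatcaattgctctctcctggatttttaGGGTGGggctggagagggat
Krt18: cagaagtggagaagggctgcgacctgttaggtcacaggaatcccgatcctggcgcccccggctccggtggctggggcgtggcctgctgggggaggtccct
Krt5: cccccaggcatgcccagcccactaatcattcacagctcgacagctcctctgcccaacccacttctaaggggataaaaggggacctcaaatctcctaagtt
Motifs were searched on both strands in windows from 250 bases before to 50 after the start, which were matched for 6 of the 10 genes (Upk1a, Upk3a, Krt5, Krt7, Krt8 and Krt18). None of the motifs contains another. The GC box GGGCGG was found for Upk3a and Krt7, against 35.7% of all 32851 promoters in the table, and the CCAAT box CCAAT for Upk3a (37.4% of all). A GATA site AGATAA was found for Upk3a and Krt8 (11.2% of all), a TATA box TATAAA for Krt8 (13.6%) and the CACCC box CCACCC for Upk1a, Krt5, Krt8 and Krt18 (31.5%). The AP-1 site TGANTCA was in none of the 6 windows (7.81% of all). These are matches of letters and not sites of binding.

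All 4 plaque genes were transcribed, at unequal levels. Upk3a, the single-pass uroplakin whose tail faces the cytoplasm, stood at 53.46 TPM in replicate 1 and 62.25 in replicate 2 (57.9 ± 6.22, SD, n = 2). Upk1b, a tetraspanin and its partner, stood at 9.81 and 19.86 TPM (14.8 ± 7.11). Both were higher in replicate 2, and the ranges of the 2 genes did not overlap. Upk1a, the other tetraspanin, stood at 7.06 and 11.88 TPM (9.47 ± 3.41), and Upk2, its partner, at 3.55 and 8.08 TPM (5.81 ± 3.20). The ranges of Upk1b and Upk1a overlapped between the libraries, as did those of Upk1a and Upk2, although within each library the order of the 4 genes was the same and the deposited credibility bounds of neighbours stayed apart. Upk3a alone made up 72.4% of the summed plaque TPM in replicate 1 and 61.0% in replicate 2, while Upk2 made up 4.81% and 7.92%. By mean TPM, Upk3a ranked 3036 among 21474 protein-coding genes and Upk2 ranked 10604.

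The simple keratins were the highest of the 10 genes. Krt8, the type II keratin of simple epithelia, stood at 238.96 and 257.74 TPM (248 ± 13.3, n = 2), and Krt18, the type I keratin that pairs with it, at 181.72 and 192.56 TPM (187 ± 7.67). Krt19, a small type I keratin without a tail domain, stood at 79.55 and 88.61 TPM (84.1 ± 6.41), and Krt7, a type II keratin of ducts and urothelium, at 75.89 and 82.04 TPM (79.0 ± 4.35). Krt8 lay above Krt18 and Krt18 above Krt19 in both libraries without overlap, whereas the ranges and the deposited bounds of Krt19 and Krt7 overlapped. Krt8 ranked 572 among protein-coding genes and Krt18 795. Krt7 lay above Upk3a, the next gene in the order, by 1.42 times in replicate 1 and 1.32 times in replicate 2.

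The basal genes stood at the bottom of the order. Trp63, which encodes the transcription factor p63 of basal epithelial cells, stood at 1.01 and 1.26 TPM (93 and 106 counts). Krt5, the type II keratin of basal cells, stood at 0.21 and 0.57 TPM (10 and 29.73 counts). Trp63 was above Krt5 in both libraries without overlap, and both lay under every plaque gene. With Krt5 as the exception, 9 of the 10 genes reached 1 TPM in both libraries, against 62.2% of protein-coding genes and 34.7% of all mouse genes. Trp63 passed that threshold in replicate 1 by 0.01 TPM, and its deposited bounds there ran from 0.862 to 1.37.

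**Figure D1:**
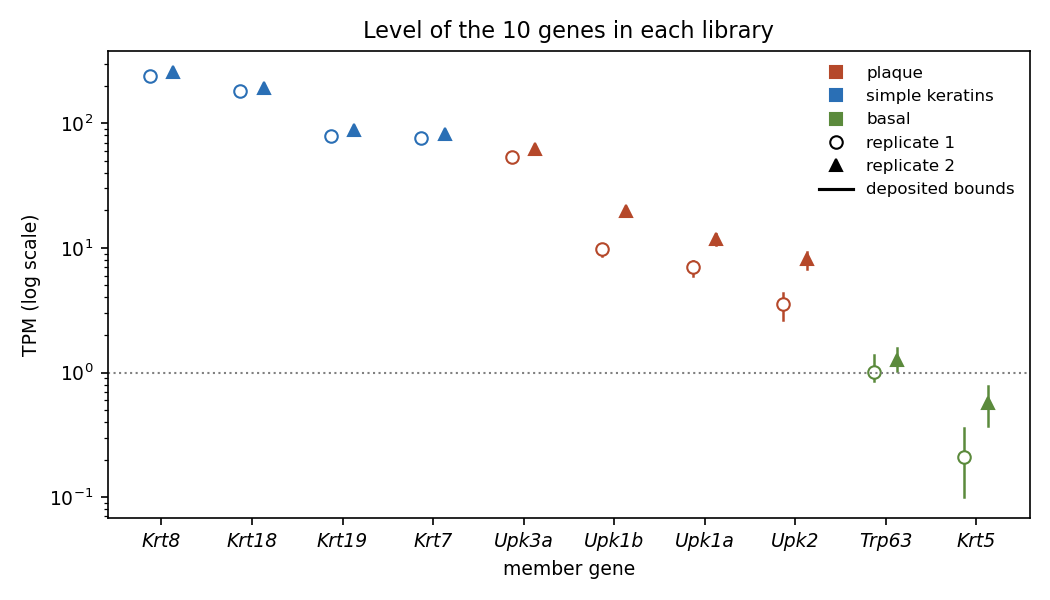
TPM (log axis) of the 10 genes in replicate 1 (open circles) and replicate 2 (filled triangles), with the deposited credibility bounds as lines, ordered by mean and coloured by group; the dotted line marks 1 TPM. The 4 simple keratins lie highest, from 75.89 TPM upward, Upk3a follows at 53.46 and 62.25, and Krt5 lies lowest at 0.21 and 0.57.

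Between the groups, plaque genes lay 8.92-fold below simple keratins. Group levels were averaged over their genes as log2(TPM + 0.1), and plaque minus simple keratins gave -3.16 from the mean TPM of the libraries, -3.55 in replicate 1 and -2.88 in replicate 2. Basal minus simple keratins gave -7.41 (-7.76 and -7.17), which is 171-fold, and plaque minus basal genes gave 4.26 (4.21 and 4.29), which is 19.1-fold. Each difference had the same direction in both libraries and was larger than the gap between them. These are descriptions of 4, 4 and 2 genes, and the pseudocount of 0.1 shortens the distance to Krt5. Summed over members, plaque genes reached 73.9 and 102 TPM, simple keratins 576 and 621, and basal genes 1.22 and 1.83.

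Partners in a complex were not equally abundant. Upk1b stood below Upk3a by 5.40-fold in replicate 1 and 3.12-fold in replicate 2 (log2 ratio of TPM + 0.1, -2.43 and -1.64). Upk1a stood above Upk2 by 1.96-fold and 1.46-fold (0.97 and 0.55). Both uroplakin pairs were closer to equal in replicate 2 than in replicate 1. The keratin pairs moved less between libraries: Krt8 exceeded Krt18 by 1.31-fold and 1.34-fold (0.39 and 0.42), and Krt7 was under Krt19 by 1.05-fold and 1.08-fold (-0.07 and -0.11). Krt5 lay under Krt14, the type I keratin it pairs with in basal cells, by 2.84-fold and 2.30-fold, at levels close to the pseudocount (Krt14 0.78 and 1.44 TPM).

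Of the plaque genes, 3 differed between the pools more than the 4 simple keratins did. Ratios between the pools are given as log2 of replicate 1 over replicate 2, from expected counts scaled by TMM (trimmed mean of M-values), with an exact Clopper-Pearson 95% interval that covers counting error only; each pool is 1 library, so there is no replicate check. Upk2 had 63 counts in replicate 1 and 156 in replicate 2, a log2 ratio of -1.17 (interval -1.64 to -0.76). Upk1b had 376 and 827 counts, a ratio of -1.01 (-1.20 to -0.84), and Upk1a 196 and 358, a ratio of -0.74 (-1.01 to -0.49). Upk3a, with 1236 and 1563 counts, had a ratio of -0.22 (-0.33 to -0.11), whose interval does not meet those of the other plaque genes. Within counting error, the plaque genes thus did not shift by 1 common factor. Other variation between libraries, gene by gene, was not measured.

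The simple keratins had ratios between -0.16 (Krt19) and -0.08 (Krt18). Krt8 had a ratio of -0.11 (-0.15 to -0.07) and Krt7 of -0.11 (-0.17 to -0.05). Trp63 had a ratio of -0.07 with an interval from -0.49 to 0.35, so a difference was not detectable at this depth. Krt5 had a ratio of -1.31 (-2.66 to -0.39), but its mean was under 1 CPM (counts scaled to library size) and it was not counted. Of the 9 genes with at least 1 CPM, Upk1b and Upk2 were over 2-fold higher in replicate 2, against 0.579% of 15362 genes (2.32% in either direction). Upk1b did so narrowly, with 2.02-fold, and with library size in place of TMM its ratio was -0.99, which left Upk2 alone. At 1.5-fold Upk1a joined them, against 2.06% of genes. Among genes of like level, 0.887% of those from 1 to 10 TPM and 0.347% of those from 10 to 100 TPM were over 2-fold higher in replicate 2, and 3.45% and 1.07% were over 1.5-fold higher. All 9 ratios were below 0, against 52.5% of genes.

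**Figure D2:**
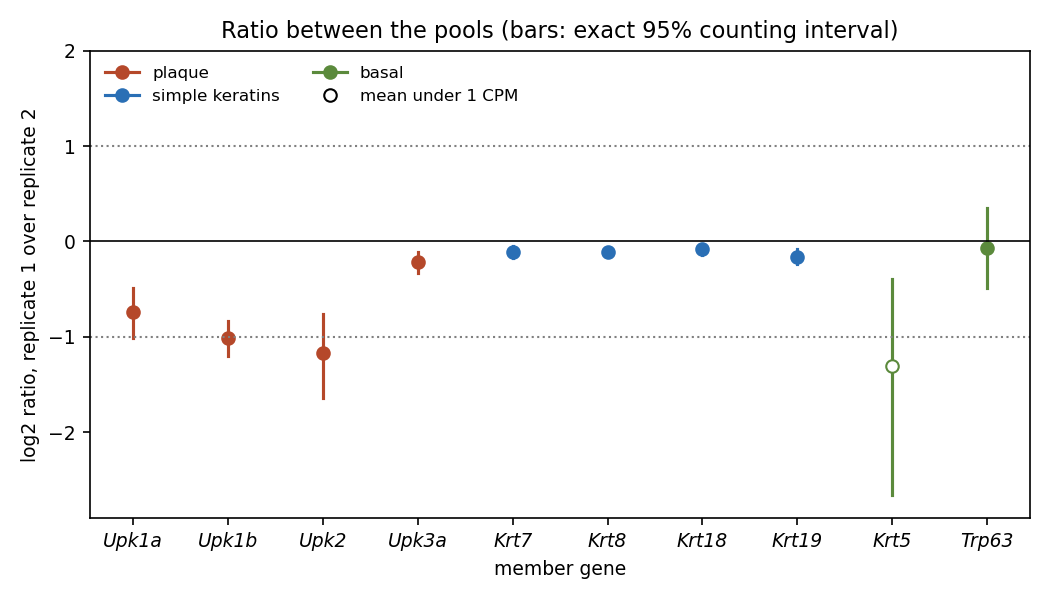
Log2 ratio of replicate 1 over replicate 2 for each gene (points) with its exact 95% counting interval (bars); dotted lines mark 2-fold, and the open point is Krt5, with a mean under 1 CPM. The 4 simple keratins lie between -0.16 and -0.08, whereas Upk1a, Upk1b and Upk2 lie between -1.17 and -0.74.

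The lists beside the plaque genes did not all move with them. Genes of the ureter mesenchyme and smooth muscle summed to 578 TPM in replicate 1 and 1080 in replicate 2. Their median ratio was -0.58 (range -3.13 to 0.39). All 12 were detected, against 62.2% of protein-coding genes, a share to set beside the detection counts of the lists below too. Over 2-fold higher in replicate 2 were 3 of 12, against 0.579% of all tested genes. Actg2, the smooth muscle gamma-actin, stood at 17.38 and 152.98 TPM, the calponin Cnn1 at 7.33 and 28.42 and the smooth muscle myosin Myh11 at 9.47 and 27.24. Acta2, the smooth muscle alpha-actin, stood at 304.85 and 563.59 TPM and the actin-binding Tagln at 55.01 and 106.65. Of the 12 ratios 9 were below 0, against 52.5% of all tested genes. The list did not move as one: Smtn, the actin-binding smoothelin, stood at 90.18 and 97.80 TPM (ratio -0.10) and Synpo2 had a ratio of -0.14. The ureter genes Tshz3 (0.39), Bmp4 (0.16) and Tbx18 (0.10) had ratios above 0. Adrenal cortex genes were also higher in replicate 2, with a median ratio of -0.81 and sums of 99.2 and 154 TPM. Of their ratios 6 of 6 were below 0, against 52.5% of all tested genes. Epithelial adhesion genes had a median ratio of -0.07 (range -0.19 to 0.03) and genes of the ureteric bud and collecting duct 0.07 (-0.58 to 0.15), beside -0.01 over all tested genes. The part of these other tissues in the plaque difference was not tested.

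**Figure D3:**
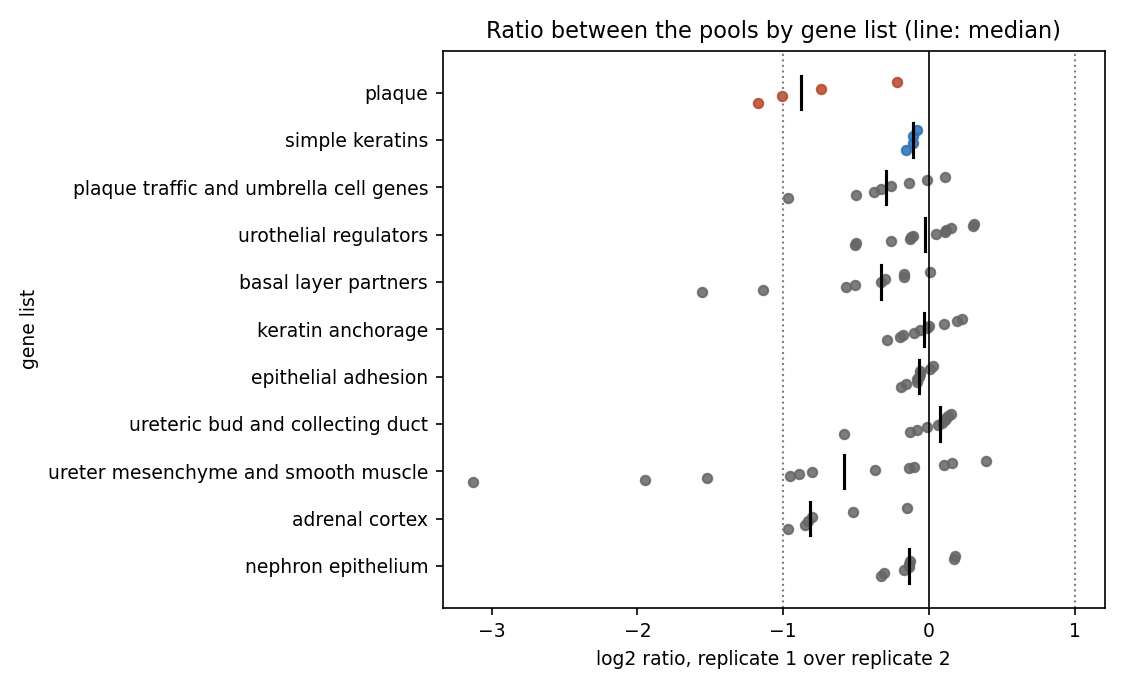
Log2 ratio of replicate 1 over replicate 2 (horizontal axis) for every gene with at least 1 CPM in the plaque and simple keratin groups and in 9 other lists; each point is a gene, the black line its list's median and dotted lines mark 2-fold. The plaque median is -0.88, the adrenal cortex median -0.81 and the smooth muscle median -0.58, while simple keratins (-0.11), epithelial adhesion genes (-0.07) and nephron genes (-0.14) lie close to 0. Some lists that are not shown, such as skeletal muscle (-0.53), also had medians below 0.

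Genes that act with uroplakins in umbrella cells were present at low to moderate levels. Of 8 such genes 7 reached 1 TPM in both libraries, with medians of 3.83 and 4.89 TPM and ratios between -0.97 and 0.11 (median -0.29), none over 2-fold. Mal, a raft protein of apical transport that the collecting duct also uses, stood at 48.01 and 49.30 TPM, and Vps33a, a vesicle tethering subunit, at 22.45 and 20.78. The sorting nexin Snx31, which binds uroplakins, stood at 5.59 and 7.20 TPM and Sytl2, a Rab27 effector, at 4.23 and 4.27. Krt20, the keratin of mature umbrella cells, stood at 1.24 and 1.49 TPM and the urea transporter Slc14a1 at 0.43 and 0.71, under the threshold. Krt20 was thus far below Krt8, Krt18, Krt19 and Krt7 in both libraries. Of the 2 uroplakin genes outside the plaque set, Upk3b, which mesothelium also expresses, was higher in replicate 2. It stood at 4.48 and 7.80 TPM (log2 ratio -0.80, interval -1.04 to -0.57), and Upk3bl stood at 1.87 and 3.08 (-0.55, -1.19 to 0.03), a difference not detectable at this depth.

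Regulators linked to urothelial fate did not shift between the pools as a list. Of 12 genes 10 were detected, none was over 2-fold different, and the ratios ran from -0.51 to 0.31 around a median of -0.03. Gata3, a factor of both ureteric epithelium and urothelium, stood at 96.11 and 86.28 TPM, Elf3, an epithelial ETS factor, at 34.21 and 37.03, Ehf, another of that family, at 23.61 and 21.42, and Ovol1 at 13.40 and 12.41. Shh, the ligand by which the ureteric epithelium signals to the mesenchyme around it, stood at 0.71 and 0.84 TPM and Foxa1 at 0.70 and 1.01, both short of the threshold in at least 1 library. The highest of these regulators are also genes of the collecting duct lineage or of epithelia at large, so their levels do not measure urothelium.

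Partners of the basal layer fell into 2 ranges. Of 15 genes 8 were detected, a share not far from the 62.2% of protein-coding genes, with medians of 1.02 and 1.66 TPM. The laminin receptor subunit Itga6 stood at 48.85 and 65.05 TPM, and it is also made outside stratified epithelium. Perp and Sfn followed at 16.63 and 18.67 and at 17.49 and 17.41 TPM. Desmosomal cadherins of stratified epithelium were at or near 0: Dsc3 had 5 and 9 counts and Dsg3 0 counts in both libraries, which allows up to 3 in each. Of the 9 genes with at least 1 CPM, 2 were over 2-fold higher in replicate 2, against 0.579% of all tested genes. These were Krt15, a type I basal keratin (1.06 and 3.23 TPM, ratio -1.56, interval -2.16 to -1.08), and Lamb3, a laminin chain (1.02 and 1.90 TPM, ratio -1.14, interval -1.56 to -0.77). The interval of Lamb3 includes 2-fold, and its TPM values were less than 2-fold apart. Both of these TPM values lay under their deposited bounds (1.17 to 3.09 and 2.04 to 3.73). The library in which Krt5 and Krt15 were higher is the one with Sftpc, and the part of lung RNA in this was not tested.

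Genes for proteins that anchor keratin filaments to junctions differed little between the 2 libraries. Of 12 listed genes 11 were matched (Eppk1 was not) and 10 detected, with 10 ratios between -0.29 and 0.23 (median -0.03). Plakoglobin, Jup, stood at 125.90 and 127.92 TPM, the linkers Plec and Dst at 22.80 and 21.73 and at 22.02 and 18.56, and Pkp2 at 9.93 and 10.18. The cornified-layer linker Ppl stood at 2.74 and 2.56 TPM and Pkp1, a plakophilin of stratified epithelia, at 0.35 and 0.20. Epithelial adhesion genes were higher and all 9 were detected, with Epcam at 212.21 and 221.08 TPM, Spint2 at 210.04 and 235.56 and Cldn7 at 187.99 and 190.77. Cdh1, E-cadherin, stood at 85.61 and 90.70 TPM. Krt8 thus lay above each of these genes in both libraries, and Krt7 lay under Cdh1 without overlap. Krt19 lay under Cdh1 within each library, but their ranges and deposited bounds overlapped.

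Across the whole keratin family, RNA was concentrated in few genes. Of 54 keratin genes 9 reached 1 TPM in both libraries and 17 had no count in either. The 4 simple keratins held 94.5% of all keratin TPM in both replicate 1 and replicate 2. After them came Krt23, an epithelial type I keratin, at 18.15 and 18.71 TPM, Krt10 at 5.85 and 4.93, Krt15, Krt80 at 1.61 and 1.22, and Krt20. In the cluster of chromosome 15, which ran over 685 kb from Krt80 to Krt18 with 27 keratin genes, Krt7 and the pair of Krt8 and Krt18 stood near opposite ends. The 23 keratin genes between Krt7 and Krt8, Krt5 among them, summed to 2.13 and 3.14 TPM, and none reached 1 TPM. The highest of them, Krt1, stood at 0.63 and 0.44 TPM. On chromosome 11, the other 26 keratin genes summed to 30.1 and 32.1 TPM beside Krt19.

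**Figure D4:**
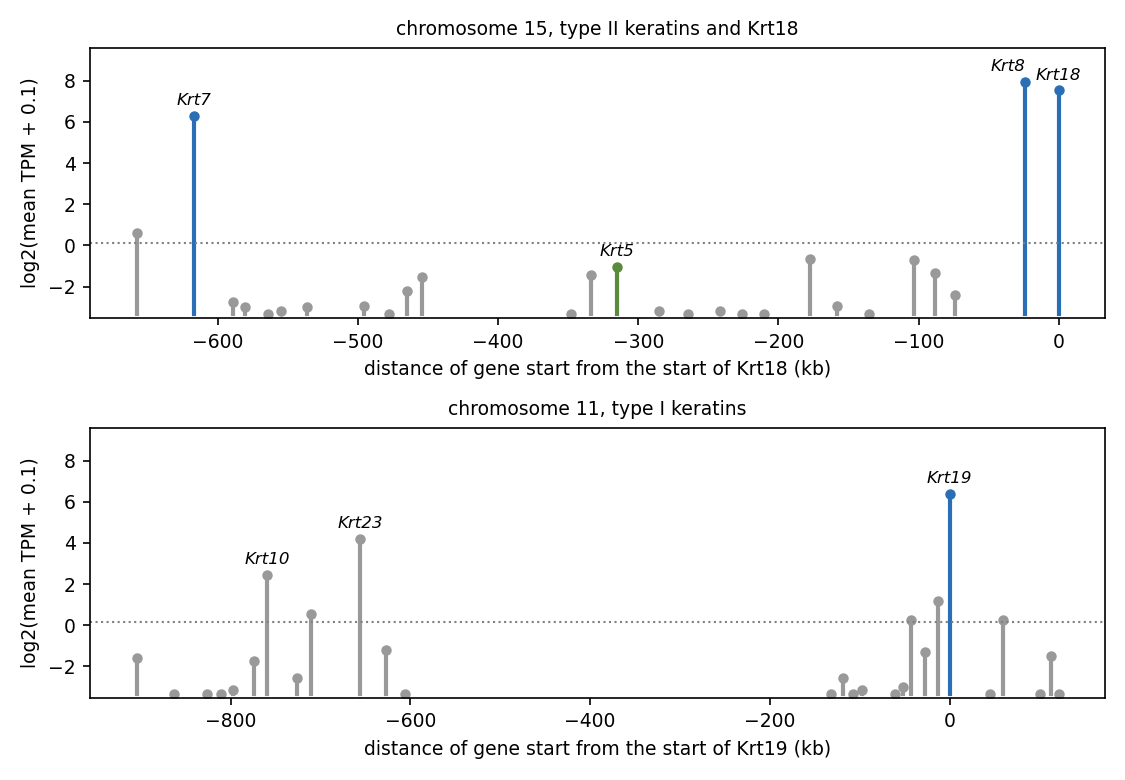
Level of every keratin gene, as log2(mean TPM + 0.1) over both libraries, against the distance of its start from that of Krt18 (chromosome 15) or Krt19 (chromosome 11) in kb; simple keratins are blue, Krt5 green, other keratins grey, and the dotted line marks 1 TPM. The 23 genes between Krt7 and Krt8 all lie under the line, while Krt23 and Krt10 stand out beside Krt19.

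Krt5 reads could not be told apart fully from those of a neighbour. Its count in replicate 2 was 29.73, and that of Krt6a, a stress-inducible type II keratin of stratified epithelia, was 22.27, which sum to 52.00, so at least part of the reads were divided between the genes. In replicate 1 the counts were 10 and 6. The sum of both genes was 16 counts in replicate 1 and 52.00 in replicate 2, so the low level of Krt5 does not depend on how the shared reads were divided. The other 9 genes had whole-number counts in both libraries.

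Trp63 is read from 2 start sites, which give proteins with (TAp63) or without (deltaNp63) the amino-terminal transactivation domain, and deltaNp63 is the form of basal epithelial cells. The first 60 coding bases of the longest transcript of each kind show the difference, with capitals for bases that come before the part both share (GENCODE M21, plus strand of chromosome 16, coding starts at 25684290 and 25802060).
TAp63: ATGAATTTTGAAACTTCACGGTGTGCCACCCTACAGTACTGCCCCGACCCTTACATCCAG
deltaNp63: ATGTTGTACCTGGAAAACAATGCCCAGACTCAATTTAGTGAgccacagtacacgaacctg
The private coding stretch is 323 bases in the TA transcript and 41 bases in the deltaN transcript. The 4 transcripts with the downstream start held 77.7 of the Trp63 counts in replicate 1 and 95.2 in replicate 2, or 83.5% and 89.8%. The 4 with the upstream start held 15.3 and 10.8 counts. By TPM the downstream share was 74.0% and 79.4%. Counts assigned to the downstream start were thus in the majority in both libraries and by both measures, but they are estimates from 93 and 106 counts, and transcripts of both kinds share exons. The TA transcript shown had 3.98 counts in replicate 1 and 0 in replicate 2.

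Most of the other genes rested on 1 transcript. The 4 uroplakins, Krt5, Krt8 and Krt18 each had a single transcript in the tables. Krt7 had 6, and its longest transcript (4094 nt) held 46.6% and 48.9% of the gene's TPM but 78.8% and 82.7% of its counts. A 642 nt transcript that starts upstream held 34.92% and 37.41% of TPM with 330.4 and 415.5 counts. The longest transcript alone stood at 35.35 and 40.08 TPM, so the level of Krt7 depends on whether short transcripts are included. For Krt19, the coding transcript (1576 nt) stood at 51.35 and 57.34 TPM and held 64.5% and 64.7% of TPM. A non-coding transcript of 823 nt held 35.45% and 35.29%. By these leading transcripts alone, Krt19 lay above Krt7 without overlap, and within each library both lay under Upk3a, whose single transcript stood at 53.46 and 62.25 TPM.

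**Figure D5:**
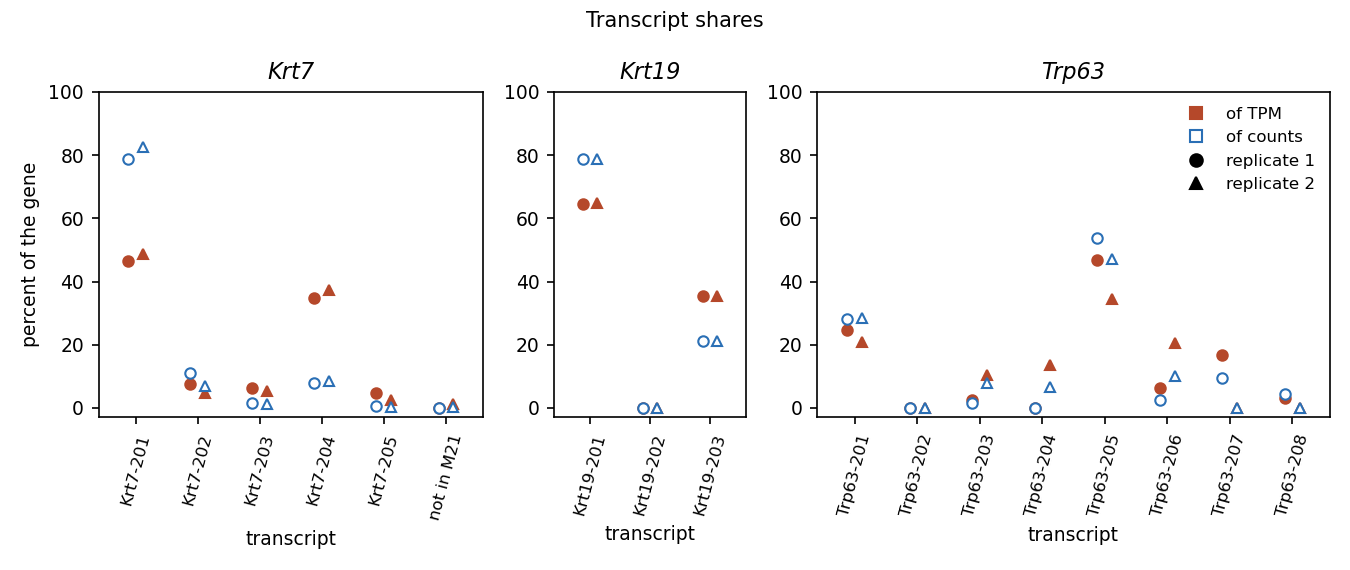
Percent of each gene by transcript for Krt7, Krt19 and Trp63, as the deposited percent of TPM (filled red) and as percent of expected counts (open blue), in replicate 1 (circles) and replicate 2 (triangles). The longest Krt7 transcript holds 78.8% and 82.7% of counts but 46.6% and 48.9% of TPM, and the Trp63 transcripts shift more between libraries than those of Krt19.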

How the data were processed

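Total RNA-seq of 2 libraries was used. The assembly is mm10 and the annotation M4, per the deposited text notes. Aligner, quantifier and strand setting: not given in the sources used here. Whether reads of a gene and of one overlapping it on the other strand were told apart is therefore not known. GENCODE M21 places a gene on the opposite strand over Krt7 (Gm671), Krt8 (Gm36026) and Krt5 (Gm44323), which were not analysed here, and over Trp63 (Gm24928). The authors deposited expected counts (estimated counts that need not be whole), TPM scaled to length and library over all entries, spike-ins included, FPKM, credibility bounds of TPM (used as a signal that is never negative) and the percent of each transcript within its gene. The bounds belong to the deposited posterior mean TPM. The TPM can therefore lie above them, as for Krt8, or under them, as for Lamb3.

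Names and positions came from GENCODE M21 (GRCm38) by stable identifier, which matched 42462 of 43346 mouse genes; all 10 members matched. Models can differ between M4 and M21. The Upk2 transcript had 873 nt in the deposited values and 1083 nt in M21, and that of Upk1a 1308 and 1421 nt. What such lengths do to the ratios of partners was not tested. Library totals were 35255968 and 38706236 counts, of which spike-ins took 2.82% and 2.08%. Mouse genes alone entered library sizes. Expected counts were rounded and scaled by TMM in edgeR 4.0.16 (R 4.3.3), with a prior count of 2 and a minimum mean of 1 CPM; DESeq2 1.42.0 size factors were an alternative. Group levels are means of log2(TPM + 0.1). Intervals are exact Clopper-Pearson at 95% and, like the floor of 3 counts, cover counting error only, since reads are not independent molecules. Simulated counts had the library sizes of the pools and a spread that was assumed, not estimated from them. There the scaling put 100% of 100 genes with a true 4-fold change past 2-fold, and 0.08% of 15137 genes without a change. The 0.08% is therefore no error rate for the real pools, where 2.32% of 15362 genes were over 2-fold. Python 3.11.15, numpy 2.4.6, pandas 2.3.3, scipy 1.17.1 and matplotlib 3.10.9 were used.

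The members, lists and settings were chosen with earlier results of these data known. Named are all members, per list the up to 4 highest and 2 lowest genes by mean TPM and those over 2-fold between the pools, and keratins of at least 1 TPM. Sftpc, Nkx2-1, Cdx2, Fabp2, Muc2, Cdh17 and Vil1 are the 7 genes of a list of gut and lung epithelium. Krt1, Krt6a, Krt14, Synpo2, Tshz3 and Bmp4 were named after their values were seen. No gene was sought for a pattern like that of a member, because 2 libraries give no pattern over samples. 1 gene that the rule names and 1 sequence comparison are not reported here.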

Additional observations from a re-analysis of the deposited data

How the results depend on the processing

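The difference of plaque genes from simple keratins kept its direction under all alternatives tried. Under those that kept both libraries it moved by less than the SD of the libraries (0.47). With 1 library left out it was -3.55 (replicate 1 kept) and -2.88 (replicate 2 kept). Here and below, leaving 1 library out only returns the value of the other, so it is no further check. Basal genes against simple keratins gave -7.41 in the main setting, -6.28 with a pseudocount of 1, -6.75 with only genes of at least 1 TPM in both libraries (Trp63 alone) and -7.76 to -7.17 with 1 library left out. Plaque against basal genes gave 4.26 in the main setting, 4.15 with FPKM, 4.18 with posterior mean TPM, 3.22 and 4.45 with pseudocounts of 1 and 0.01, 3.94 with the median, 3.59 with genes of at least 1 TPM only and 4.21 to 4.29 with 1 library left out. The count of detected genes was 9 in the main setting, at 0.5 TPM and with either library left out, 8 at 2 TPM and with FPKM (Trp63 lost), and 10 at a threshold of 10 counts (Krt5 gained). The count over 2-fold between the pools was 2, and 1 with library size in place of TMM, 3 with spike-in totals (Upk1a gained) and 3 with no filter on low counts (Krt5 gained). With spike-in totals the median ratio of all tested genes shifted from -0.01 to -0.43 and the members shifted with it (Krt8 to -0.53, Upk3a to -0.64), so directions of small ratios hold relative to all genes only. No sign of a member's ratio between the pools or of a partner ratio changed under the alternatives tried. At these depths 10 counts on 2 kb came to 0.218 and 0.201 TPM, which limits Krt5 and the Trp63 transcripts most. No paired analysis was possible because the 2 samples form 1 group.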

Other observations

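Mesothelium, which shares some uroplakin and keratin genes, gave mixed values. Msln, a surface protein of mesothelium, had 196 and 261 counts in replicates 1 and 2 (log2 ratio of replicate 1 over replicate 2, -0.29), Lrrn4 stood at 0.82 and 1.44 TPM (-0.80) and Gpm6a at 21.95 and 23.78 (-0.12). The 3 genes summed to 27.0 and 30.4 TPM. Upk1b and Krt19 are on the mesothelial list too, so how much of their RNA is urothelial was not tested.

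Most epidermal genes were near the limit of detection. Krt10, at 5.85 and 4.93 TPM, was the only one of 8 to reach 1 TPM in both libraries. The envelope protein Lor stood at 0.52 and 0.57 TPM, and Flg and Dsg1a had at most 3 counts in either library. Ivl, a precursor of the cornified envelope, had 22 and 52 counts (0.53 and 1.14 TPM, log2 ratio -1.06). Skeletal muscle genes summed to 96.6 and 196 TPM, with Acta1 at 48.29 and 138.67 TPM and Mylpf at 22.44 and 21.17, so the members of that list did not move together either.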
